A study of Mus musculus with 8 samples.

Results

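Gamma-delta T cells of inguinal fat were taken as the cells with at least 2 UMIs of Cd3d, Cd3e and Cd3g together, at least 2 UMIs of Trdc and Cd163l1 together, and no UMI of Cd8b1, Cd4, Foxp3, Cd79a, Pdgfra or Pecam1. UMIs are unique molecular identifiers, the tags by which captured transcripts were counted. This gate held 112 of 36370 cells kept. It was applied to raw counts, with no clustering, and it fixed the levels of the genes it used, so those levels are given as a description. Trdc encodes the constant region of the T cell receptor delta chain, Cd163l1 the scavenger receptor SCART1, and the Cd3 genes the signalling chains of the receptor.

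The cells came from the stromal vascular fraction (SVF) of inguinal, or subcutaneous, white adipose tissue (sWAT) of C57BL/6 mice (C57BL/6J in the study's text). The 4 Ad-Lib libraries (1, 3, 5 and 7) came from mice with free access to food. The 4 TAN libraries (2, 4, 6 and 8) came from mice fed twice-a-night, in 2 nightly windows. By the study's account all were males on regular chow, with no genetic or drug treatment, and inguinal lymph nodes were excluded at dissection. Their age is uncertain, because the labels say 8 weeks and the study's text refers to adult mice fed for months. The SVF is what remains of digested fat after adipocytes float off, and each library was made by droplet capture of single cells with sequencing of the 3′ ends of transcripts.

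Gamma-delta T cells carry a T cell receptor of gamma and delta chains in place of the alpha and beta chains of most T cells. Many settle in barrier and fat tissues early in life and hold a programme fixed in the thymus, either of interleukin 17 (IL-17) or of interferon gamma and cytotoxic molecules. In adipose tissue, IL-17 from gamma-delta T cells is known to act on stromal cells and has been tied to thermogenesis and to sympathetic innervation.

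The promoters of Il17a and Il17f are shown because these cytokine genes had the largest differences from other T cells among the genes named below. They are neighbours on chromosome 1 (GRCm38), Il17a at chr1:20730905-20734496 on the plus strand and Il17f at chr1:20777146-20790617 on the minus strand, with 42649 bases between them. The sequences below, from RefSeq on GRCm38.p6, run 5′ to 3′ along each gene's strand from 250 bases before the transcription start in RefSeq to 50 after it. For Il17f that start lies inside the GENCODE gene given above and not at its end. Capitals mark AGGTCA or its reverse complement TGACCT, core letters that nuclear receptors recognise.
Il17a, chr1:20730655-20730954, plus strand: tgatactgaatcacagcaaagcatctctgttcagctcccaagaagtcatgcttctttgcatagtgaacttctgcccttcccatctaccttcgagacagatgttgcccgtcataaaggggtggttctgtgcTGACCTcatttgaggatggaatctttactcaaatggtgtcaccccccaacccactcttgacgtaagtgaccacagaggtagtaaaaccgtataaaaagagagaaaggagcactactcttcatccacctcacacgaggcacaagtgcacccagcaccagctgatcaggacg
Il17f, chr1:20784221-20784520, minus strand: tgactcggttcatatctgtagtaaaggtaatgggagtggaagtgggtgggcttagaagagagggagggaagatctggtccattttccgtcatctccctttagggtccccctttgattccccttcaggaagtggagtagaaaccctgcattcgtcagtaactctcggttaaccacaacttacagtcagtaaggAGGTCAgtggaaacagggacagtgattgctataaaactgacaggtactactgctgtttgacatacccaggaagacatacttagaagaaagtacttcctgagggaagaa
The letters stood 120 bases before the start of Il17a and 58 bases before this RefSeq start of Il17f. Searched on both strands, they occurred in 5340 of 32851 promoters of this length (16.3%). A match is a description of these windows and not a binding site.

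Among all 36370 cells kept, the 112 gamma-delta T cells held 733 of 1097 UMIs of Trdc (66.8%) and 196 of 287 UMIs of Cd163l1 (68.3%), which the gate fixed. They also held 501 of 668 UMIs of Il17a (75%), 114 of 142 of Il17f (80.3%) and 193 of 354 of 5830411N06Rik (54.5%), none of which the gate used. 5830411N06Rik encodes SCART2, the relative of SCART1, and lies 16138 bases beyond Cd163l1 on chromosome 7. Every cell of the gate had Trdc, 34 had Cd163l1 and 88 had Cd3e, so the given markers were present together but Cd163l1 marked a minority. Of transcripts outside the gate that speak to the label, a constant gene of the gamma chain (any Tcrg-C feature) was found in 96 of 112 cells (85.7%), and a Tcrg-C or Trdv feature in 99. Trac, the constant gene of the alpha chain, was found in 23 cells (20.5%) with a median of 1 UMI, and 16 of those also had Tcrg-C. In the other T cells of the same libraries (2999 cells with no Trdc or Cd163l1 UMI), Trac was found in 79.3%. The Tcrg-C features are close copies of each other, so counts may be split between them, and 13 cells had neither Tcrg-C nor Trdv.

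Near the edges of the gate, 9 cells had a Trdc and Cd163l1 sum of 2, 15 a sum of 3 and 88 more. Just outside, 13 cells passed every other criterion with a sum of 1, of which 8 had Trac and none Il17a. Another 25 cells were left out by Cd8b1, Cd4 or Foxp3 alone, 23 by Cd79a, Pdgfra or Pecam1 alone, and 8 by the Cd3 criterion, 5 of them with no Cd3 UMI. The cells outside by Cd79a, Pdgfra or Pecam1 included 5 with Il17a.

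Gamma-delta T cells were rare in every library, numbering 9, 19, 12 and 5 in Ad-Lib 1, 3, 5 and 7. In TAN 2, 4, 6 and 8 they numbered 11, 11, 32 and 13. As a share of cells kept this was 0.175%, 0.388%, 0.316% and 0.135% in Ad-Lib and 0.255%, 0.223%, 0.566% and 0.332% in TAN libraries. The groups overlapped, with the lowest library an Ad-Lib library and the highest TAN 6. Group means were 0.253% ± 0.119 and 0.344% ± 0.155 (SD, n = 4 each), and the exact permutation p was 0.429 (two-sided, Benjamini-Hochberg 0.514 over 6 shares). The exact 95% intervals ran from 0.0437% to 0.314% in Ad-Lib 7 and from 0.387% to 0.798% in TAN 6, and they cover counting error only. Over kept cells other than B and T cells, the means were 0.280% ± 0.151 and 0.439% ± 0.246 (exact permutation p = 0.343, n = 4 each). Without TAN 6 the difference was 0.0164 in place of 0.0904 percentage points for cells kept, and 0.0393 in place of 0.159 points for cells other than B and T cells. In SVF samples such shares follow the yield of every other cell type as well as that of the cells counted.

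As a share of T cells the group means stood in the opposite order. Gamma-delta T cells made up 6.87%, 5%, 9.76% and 5.43% of T cells in Ad-Lib 1, 3, 5 and 7 and 5.45%, 1.55%, 2.64% and 4.08% in TAN 2, 4, 6 and 8. Only TAN 2 lay within the Ad-Lib range. The means were 6.77% ± 2.15 and 3.43% ± 1.70 (SD, n = 4 each), a difference of -3.34 percentage points for which the exact permutation p was 0.0857 (Benjamini-Hochberg 0.4), above the smallest p of 0.0286 that 70 assignments allow. With the Trdc and Cd163l1 sum set to at least 3 the difference was -3.52 points, and with at least 1 it was -3.45 points, and the exact permutation p was 0.0286 for both (n = 4 each, Benjamini-Hochberg not computed). The denominator varied widely, since T cells were 2.48% to 7.77% of kept cells in Ad-Lib and 4.68% to 21.5% in TAN libraries. B cells, which vary with lymphoid tissue in the digest, were 0.408% to 9.42% and 1.97% to 8.26%. The part of either in the difference was not tested.

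**Figure D1:**
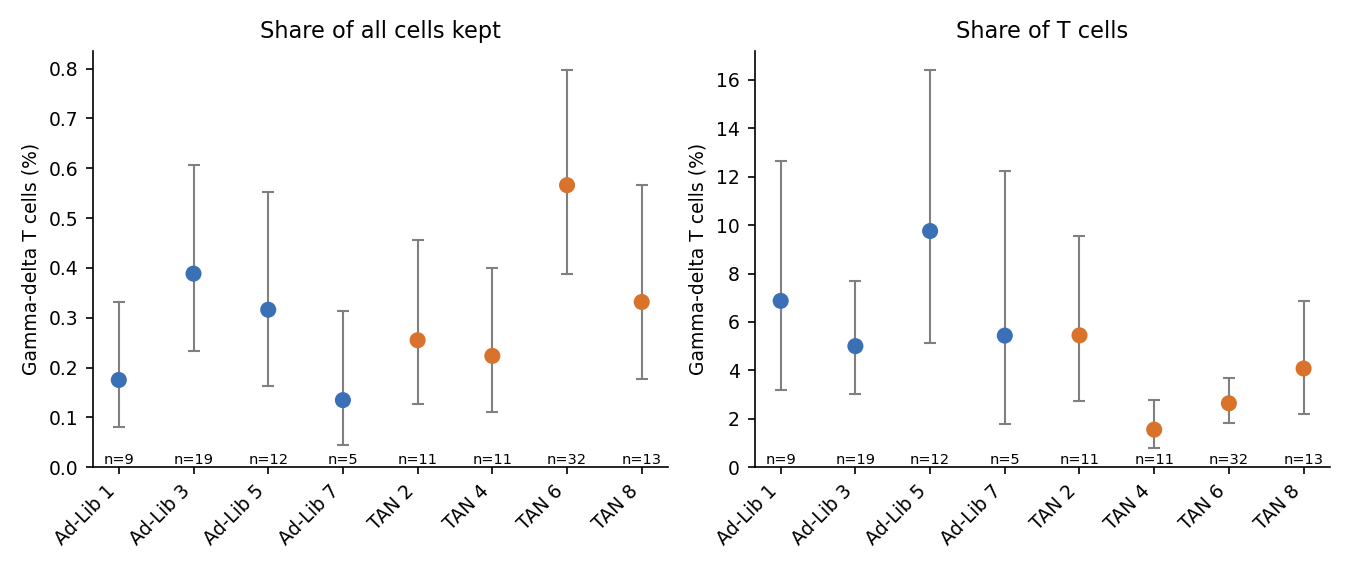
Gamma-delta T cells as a percent of all cells kept (left) and of T cells (right), 1 point per library with its exact 95% interval and the number of cells, Ad-Lib and TAN in different colours. The groups overlap on the left, while on the right TAN 4, 6 and 8 (1.55% to 4.08%) lie below all Ad-Lib libraries (5% to 9.76%).

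The median UMI count per gamma-delta T cell was 5443 to 6610 over the 8 libraries, against 4442.5 to 5711.5 in other T cells, and their summed counts were 28473 to 183225 UMIs per library and 683555 in all. Of 36193 distinct barcodes among the cells kept, 174 occurred in more than 1 library. The barcode of 1 gamma-delta T cell was also kept in another library, and none was a gamma-delta T cell in more than 1. None of the 112 was among the 1351 cells that a simulated-doublet score would have removed.

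The gamma-delta T cells fell into cells with mainly IL-17 programme UMIs and cells with mainly type 1 and cytotoxic UMIs, with hardly any between. The IL-17 list held 23 genes known from IL-17-producing lymphocytes, such as Maf, Blk, Il23r and Ccr6, and the type 1 list 21 genes, such as Tbx21 (T-bet), Ifng, Nkg7 and Ccl5. As a share of each cell's UMIs on both lists, the IL-17 list took 90% or more in 61 cells and under 10% in 38, and only 2 cells lay between 25% and 75%. Divided at 50%, 66 cells were on the IL-17 side, with a median of 53 IL-17 and 2 type 1 UMIs, and 46 on the type 1 side, with medians of 3 and 77. Median depth was 5777 and 5739 UMIs per cell, with a median of 5 Trdc UMIs on each side. Some cells had few UMIs of either list, such as a cell of TAN 6 with 0 IL-17 and 2 type 1 UMIs. Another of TAN 6 had 4 and 0, so the side of such cells rests on little. The sides are defined by these genes, so no test was made between them.

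**Figure D2:**
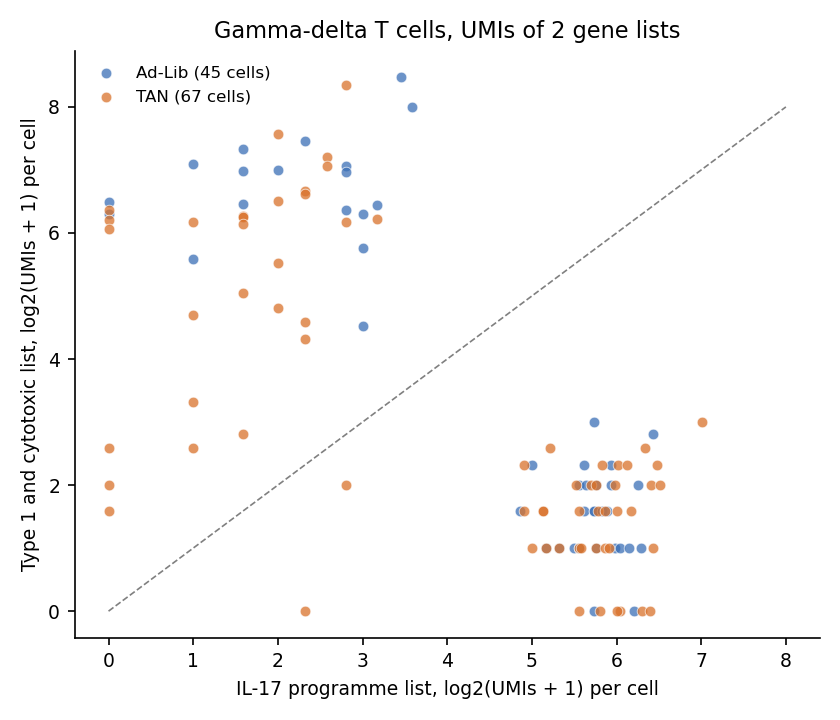
UMIs of the IL-17 list (horizontal) against UMIs of the type 1 and cytotoxic list (vertical) in each of the 112 gamma-delta T cells, as log2(UMIs + 1), coloured by feeding group, with a dashed line where the sums are equal. Most cells lie along one axis or the other, 66 below the line and 46 above it.

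On the IL-17 side, Maf, a transcription factor needed by IL-17-producing gamma-delta T cells, was found in 61 of 66 cells, and Blk, a kinase of the Src family, in 57. Il7r, the receptor for the survival factor IL-7, was found in 64. The chemokine receptor genes Ccr2 and Ccr6 were found in 58 and 36. On the type 1 side Blk and Ccr6 were found in 0 of 46, and Maf in 8. Il17a was found in 35 of 66 and in 0 of 46, and it is on the list that defined the sides. Per cell with Il17a there were 1 to 56 UMIs with a median of 12, the top 5 cells held 36.7% of them, and 17 cells had Il17a and Il17f together. In B cells, which should lack the gene, Il17a was found in 0 of 1786 (a share of up to 0.168%), at median depths of 3104 to 14789 UMIs per library.

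The type 1 side carried genes of cytotoxic lymphocytes, some of them in few cells. Nkg7, a granule protein, was found in 44 of 46 cells, Ccl5, a chemokine of effector T and NK cells, in 39, and Cd27, a costimulatory receptor known to mark interferon-type gamma-delta T cells, in 39. Xcl1, a chemokine for cross-presenting dendritic cells, was found in 26, the NK receptor gene Klrb1c in 19, and Ifng in 15. Some genes of the list were rarer, with Gzmb in 12 cells, Eomes in 11, Ncr1 in 10 and Gzma in 3. On the IL-17 side Nkg7, which is on the defining list, was found in 0 of 66, Ccl5 in 1, Cd27 in 3, and Xcl1, Klrb1c and Ifng in none.

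Genes outside both lists differed in the same cells. Cxcr6, a chemokine receptor of tissue-resident lymphocytes, was found in 66 of 66 cells of the IL-17 side and 18 of 46 of the type 1 side. Ccr7, which guides lymphocytes into lymph nodes, was found in 3 of 66 and 13 of 46, and Cd44, an activation marker, in 51 and 21. S1pr1, the receptor for exit from tissue, was found in 10 and 24, and the transcription factor gene Lef1 in 1 and 15. Among receptor genes, Tcrg-C1 was found in 49 and 13 cells, any Tcrg-C in 60 (90.9%) and 36 (78.3%), and Trac in 10 (15.2%) and 13 (28.3%). The type 1 side therefore held the larger share of cells with Trac and without Tcrg-C, and how many of its cells express an alpha-beta receptor was not tested. Both sides were present in all 8 libraries, the IL-17 side with 7 of 9, 11 of 19, 5 of 12 and 4 of 5 cells in Ad-Lib 1, 3, 5 and 7 and 7 of 11, 6 of 11, 21 of 32 and 5 of 13 in TAN 2, 4, 6 and 8.

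Within the IL-17 side the SCART genes overlapped in part. Cd163l1 without 5830411N06Rik was found in 19 cells and 5830411N06Rik in 45, 15 of them with Cd163l1 as well, and 2 cells had neither. SCART1 is known from gamma-delta T cells with a Vgamma6 chain and SCART2 from those with Vgamma4. Trdv4, which encodes the Vdelta1 segment that pairs with Vgamma6 in the mouse, was found in 16 of the 19 cells (84.2%) and in 4 of the 45 (8.89%). The gamma segment feature Tcrg-V6 was found in 7 of the 19 and in 1 of the 15 cells with both SCART genes, and in none of the 30 with 5830411N06Rik alone. Trdv4 and Tcrg-V6 were used neither by the gate nor by the lists.

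Il17a followed 5830411N06Rik rather than Cd163l1. It was found in 31 of the 45 cells with 5830411N06Rik (68.9%) and in 4 of the 19 with Cd163l1 alone (21.1%), and Ccr6, the receptor for CCL20, in 33 (73.3%) and 3 (15.8%). Zbtb16, which encodes the innate lymphocyte factor PLZF, was found in 8 of the 19 cells, in 2 of the 30 with 5830411N06Rik alone and in 1 of the 15 with both. Median depths were 6070 UMIs in the 19 cells, 5853.5 in the 30 and 5464 in the 15. In single libraries, all 6 such cells of Ad-Lib 3 and 5 of the 6 of TAN 2 had Trdv4, while the 17 cells of TAN 6 with 5830411N06Rik held all 4 that had Trdv4. Ad-Lib 5 held no cell with Cd163l1 alone and TAN 2 held 1 with 5830411N06Rik, so the balance of these cells varied between libraries. These counts pool few cells over libraries and Il17a and 5830411N06Rik were on the list that defined the side, so they are a description.

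**Figure D3:**
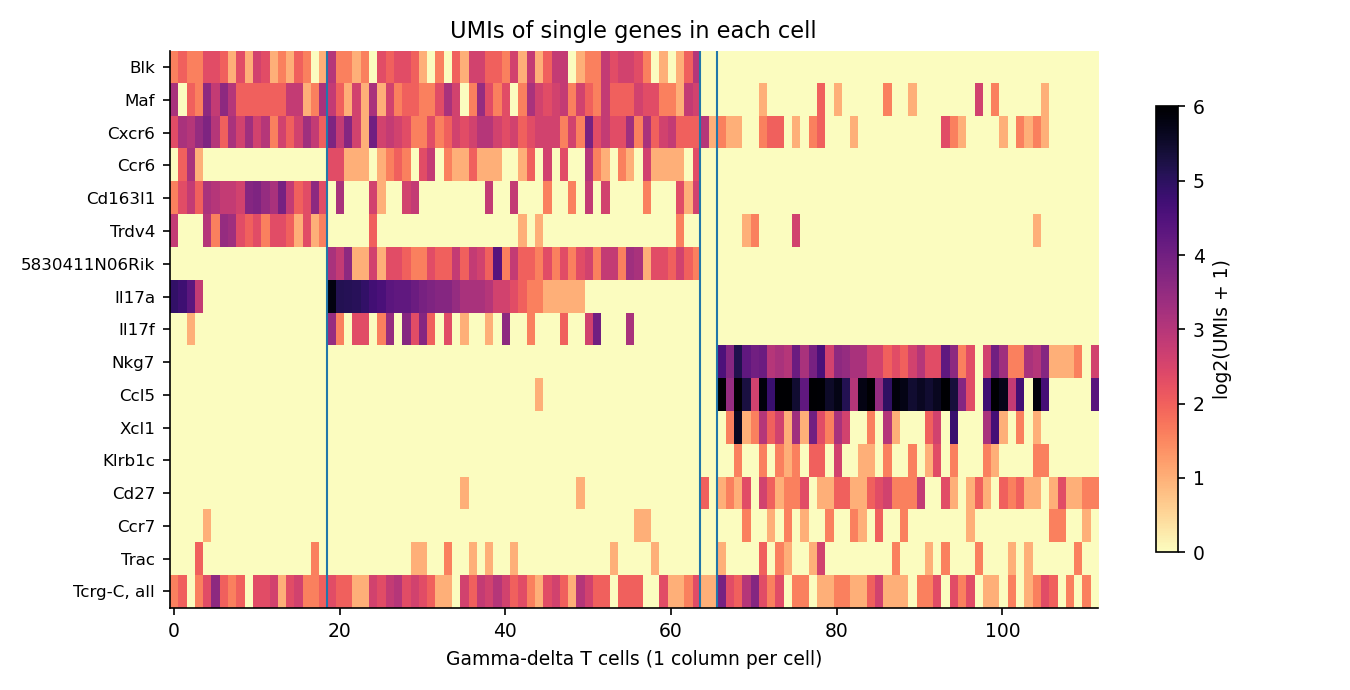
UMIs of 16 genes and the sum of Tcrg-C features (rows) in each of the 112 gamma-delta T cells (columns), coloured by log2(UMIs + 1). Blue lines divide, from the left, 19 cells with Cd163l1 alone, 45 with 5830411N06Rik, 2 with neither and 46 of the type 1 side, and Trdv4 is found in 16 of the 19 cells of the first block while Il17a and Ccr6 are found in 31 and 33 of the 45 of the second.

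To find what else set gamma-delta T cells apart, summed counts were compared with those of other T cells in the 6 libraries with at least 10 gamma-delta T cells (Ad-Lib 3 and 5, TAN 2, 4, 6 and 8), with the library as a block. Of 6666 genes tested outside the gate, 231 were called higher (3.47%) and 252 lower (3.78%) where a call needed 1.5-fold or more and an edgeR adjusted p below 0.05. DESeq2 called 236 higher and 136 lower. Of the 231 and 252 genes, 156 and 187 moved the same way in every library. A second comparison used the Cxcr6+ other T cells, which have Cxcr6 and lack Ccr7, Foxp3 and 1 further gene and so are nearer in residence. There were 597 such cells over all 8 libraries. Against those of the 6 libraries, 79 of 4499 genes were called higher (1.76%) and 85 lower (1.89%). Both comparisons use the same gamma-delta T cells. Levels below are in CPM, the UMIs of a gene after scaling to the same total for every class and library, and differences are edgeR log2 fold changes ± SE.

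Genes of the IL-17 programme were higher as a group. Of 23 genes on the list, 22 were tested and all 22 were called higher than in other T cells, with a median log2 difference of 3.37 against -0.07 over all genes tested. Against Cxcr6+ other T cells 18 were tested and 15 were called higher, with a median of 2.36 against -0.01. Genes near 0 in other T cells entered the test only through the gamma-delta T cells. The counts, and the differences of such genes below, therefore describe the list and are not support for it. The remaining gene, Il22, was found in 0 of 112, a count that allows up to 2.68% of cells with a UMI of it. Expression too low to be captured is not bounded by this. Of the 22 genes, 17 had promoters in the RefSeq table and 6 of these held AGGTCA or TGACCT (5830411N06Rik, Actn2, Ccr6, Il17a, Il17f and Il23r), in 8 of 25 promoters (32%).

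Il17a ranged from 237 to 1497 CPM with a median of 752 in gamma-delta T cells, from 0 to 4.70 CPM in other T cells and from 0 to 34.5 CPM in Cxcr6+ other T cells. The ranges did not overlap. The log2 differences were 9.13 ± 0.34 and 6.68 ± 0.39, and their size depends on the prior count because the comparison cells were near 0. Il17a entered the test against other T cells only through the gamma-delta T cells, so its differences are a description. Il17f, the close relative that pairs with IL-17A, ranged from 32.2 to 382 CPM with a median of 107 against 0 to 0.516 CPM, a difference of 8.60 ± 0.56.

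Blk ranged from 172 to 329 CPM with a median of 224 in gamma-delta T cells and from 0 to 2.06 CPM in other T cells. Its log2 difference was 7.03 ± 0.33, and 5.10 ± 0.37 against Cxcr6+ other T cells. Blk is also a B cell gene and was found in 25% of B cells. The 7 B cell markers summed to 102 to 508 CPM in gamma-delta T cells and 26294 to 409011 CPM in B cells, with 2 of the 7 at 0 in gamma-delta T cells (Ms4a1 among them) and others found, such as Cd79b in 17.9% of them and Cd74 in 22.3%. Their part in the level of Blk was not tested. 5830411N06Rik ranged from 12.7 CPM in its lowest library to 451 CPM with a median of 325, against 0.846 to 10.3 CPM in other T cells. Its log2 differences were 5.90 ± 0.29 and 4.04 ± 0.27.

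Tmem176b and Tmem176a, membrane proteins of IL-17-type lymphocytes, ranged from 378 to 1363 CPM and from 275 to 1019 CPM in gamma-delta T cells. In other T cells they ranged from 39.5 to 138 CPM and from 40.6 to 109 CPM. The log2 differences were 3.08 ± 0.19 and 3.04 ± 0.19, and 2.42 ± 0.24 and 2.30 ± 0.26 against Cxcr6+ other T cells. No library overlapped for either gene. Serpinb1a, a protease inhibitor (3.78 ± 0.29), Actn2, an alpha-actinin (3.25 ± 0.25), the potassium channel gene Kcnk1 (6.26 ± 0.55) and the transcription factor genes Sox13 (6.86 ± 0.84), Maf (1.40 ± 0.22) and Rora (1.41 ± 0.23) were also called higher than in other T cells. Against Cxcr6+ other T cells Maf (0.71 ± 0.30, adjusted p = 0.323 by edgeR) and Rora (0.27 ± 0.26, adjusted p = 0.801 by edgeR) did not pass.

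Among receptors, Ramp1, a subunit of the receptor for the neuropeptide CGRP, ranged from 275 to 581 CPM with a median of 458 in gamma-delta T cells, against 74.0 to 97.0 CPM in other T cells and 65.6 to 155 CPM in Cxcr6+ other T cells. The ranges did not overlap, and the log2 differences were 2.25 ± 0.17 and 2.12 ± 0.24. Of 15 cytokine and hormone receptor genes, 12 were tested and 8 were called higher than in other T cells, among them Il23r (4.44 ± 0.74) and Il1r1 (3.50 ± 0.73), the receptors for the cytokines that drive IL-17 release. Il18r1 (1.92 ± 0.19), Ifngr1 (1.19 ± 0.17) and Il7r (1.03 ± 0.15) were higher in this comparison and were the 3 called against Cxcr6+ other T cells (1.09 ± 0.19, 0.70 ± 0.15 and 0.94 ± 0.22). The 8 calls fell to 4 with no replicate block and against other T cells without Cd8b1, Cd4 and Foxp3, and the 3 fell to 2 with no block or without any 1 of TAN 2, 4 and 6 and Ad-Lib 3 and 5. The 3 were 6 with all 8 libraries (1 lower) and 5 with no filter (2 lower), and 1 gene was called lower without TAN 2. Il6ra was lower (-4.29 ± 0.57), with 0 to 8.68 CPM against 30.2 to 78.8 CPM.

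Of 10 chemokine receptor genes, 9 were tested and 3 were called higher than in other T cells, Cxcr6 (1.88 ± 0.20), Ccr2 (1.21 ± 0.24) and Ccr6 (2.92 ± 0.36). Against Cxcr6+ other T cells Ccr6 was higher (1.88 ± 0.37, a call lost without TAN 6), and 2 were lower, among them Cxcr3 (-1.23 ± 0.24), a receptor of type 1 T cells. The 2 fell to 1 without TAN 2, TAN 6, Ad-Lib 3 or Ad-Lib 5, by DESeq2 and with no replicate block, and were 3 with no filter and with all 8 libraries. Of 15 cytokine and growth factor genes, 8 were tested. Il17a, Il17f and Tnf (1.85 ± 0.30) were higher than in other T cells and Il2, the T cell growth factor, was lower (-3.05 ± 0.77), a call lost without Ad-Lib 5, with no replicate block and without cells that had Cd8a or Trac. The Il2 difference was -4.32 ± 0.64 against Cxcr6+ other T cells, with 0 to 17.4 CPM in gamma-delta T cells and 32.0 to 143 CPM in the Cxcr6+ cells. That call was also lost with no replicate block.

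**Figure D4:**
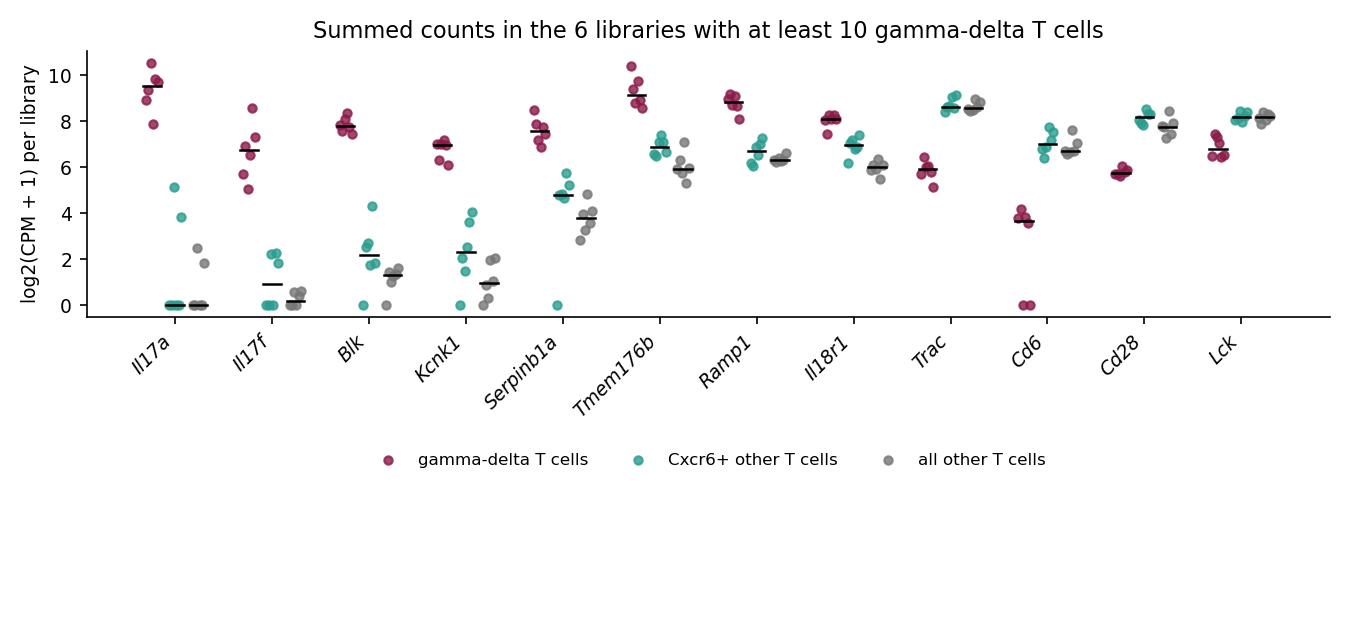
Levels of 12 genes, as log2(CPM + 1) of summed counts, in gamma-delta T cells, Cxcr6+ other T cells and all other T cells, 1 point per library for the 6 libraries compared and a bar at the median. Il17a, Il17f, Blk and Kcnk1 are higher in every library of gamma-delta T cells than in any of the other classes, while Trac, Cd6, Cd28 and Lck are lower in gamma-delta T cells.

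The receptor genes and the signalling genes behind them moved apart. Of 20 receptor features, 10 were tested against other T cells. The gate on Trdc and the lack of Trdc in other T cells bear directly on these features, and those near 0 in other T cells entered the test only through the gamma-delta T cells, so their differences are a description. The 7 called higher were gamma and delta features, including Tcrg-C1 (5.56 ± 0.34), Tcrg-C4 (5.75 ± 0.47) and Trdv4 (6.46 ± 0.68), and the 3 called lower were Trac (-2.95 ± 0.21), Trbc2 (-1.22 ± 0.16) and Trbc1 (-0.79 ± 0.20). Trac ranged from 34.3 to 86.8 CPM in gamma-delta T cells and from 352 to 507 CPM in other T cells, without overlap. Trdc and Trac lie in the same locus on chromosome 14, with 71652 bases between them. Trbc2 was still found in 84.8% of gamma-delta T cells, against 94.3% of other T cells.

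Of 12 T cell receptor signalling genes, all tested, 6 were called lower than in both other T cells and Cxcr6+ other T cells. Cd6, a receptor that tunes T cell signalling, ranged from 0 to 17.4 CPM with a median of 11.8 in gamma-delta T cells and from 94.7 to 196 CPM in other T cells. The log2 differences were -3.76 ± 0.38 and -3.78 ± 0.39, and the ranges did not overlap. Its relative Cd5, an inhibitory receptor, ranged from 11.4 to 52.1 CPM against 86.3 to 159 CPM (-2.32 ± 0.32). The kinase gene Lck (-1.48 ± 0.20), the adaptor genes Fyb (-1.22 ± 0.17) and Sh2d1a (-1.95 ± 0.33) and the adhesion receptor gene Cd2 (-0.92 ± 0.17) were lower as well. Cd247, the zeta chain of the receptor complex, was higher than in Cxcr6+ other T cells (0.93 ± 0.21, a call lost without TAN 2, Ad-Lib 3 or TAN 6) and differed from other T cells by 0.52 ± 0.18 (adjusted p = 0.075 by edgeR). The costimulatory receptor gene Cd28 was lower, at 48.3 to 65.8 CPM against 154 to 353 CPM (-2.19 ± 0.21), and by -2.42 ± 0.20 against Cxcr6+ other T cells.

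Naive and egress genes were lower than in other T cells, with 9 of 10 called lower, none higher and a median log2 difference of -1.54. Dapl1 (-4.45 ± 0.37), Igfbp4 (-3.62 ± 0.44) and the transcription factor gene Lef1 (-2.47 ± 0.32) were among them. Against Cxcr6+ other T cells, which lack Ccr7 by their gate, 6 were tested, none was called lower and S1pr1, the receptor for exit from tissue, was called higher (0.84 ± 0.22), a call that was lost with any 1 of the 6 libraries left out, with DESeq2, with no replicate block, with no filter and with all 8 libraries. Of 11 residency genes tested, 6 were called higher than in other T cells (Cxcr6, Cd44, Rgs1, Runx3, Itgae and Itgb7) and 0 of 10 in either direction against the Cxcr6+ cells. The 6 calls fell to 3 without Ad-Lib 3 (with 1 lower), without TAN 6 and without cells that had Cd8a or Trac, and to 2 with no filter on low counts. Against the Cxcr6+ cells 2 were called lower without Ad-Lib 3, 3 lower with no filter, and 1 in each direction with all 8 libraries. The share of naive-type cells among other T cells differed widely between libraries, with Ccr7 at 18.7 to 216 CPM in them.

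The type 1 and cytotoxic list was mixed in the summed cells. Of 21 genes, all tested, 7 were called higher than in other T cells (Xcl1, Klrb1c, Klrk1, Klrc1, Ncr1, Gzmb and Il2rb) and 2 lower (Cd27 and Gzma), with a median of 0.51. These counts depended on the setting, with 4 higher without TAN 4, 4 higher and 0 lower by DESeq2, 1 higher with no replicate block, and 1 higher and 1 lower against other T cells without Cd8b1, Cd4 and Foxp3. The NK receptor genes Ncr1 (2.83 ± 0.66) and Klrc1 (1.84 ± 0.38) differed most among those higher. Against Cxcr6+ other T cells 20 were tested, none was called higher and Cxcr3 was called lower, with 3 lower without Ad-Lib 5, with no filter and with all 8 libraries, and 1 higher without TAN 6 and with no filter. The 6 NK markers summed to 57.0 to 500.1 CPM in gamma-delta T cells and 56.1 to 221 CPM in other T cells, with Klra8 and Klra4 at 0 in gamma-delta T cells. Their part in these values was not tested.

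The genes that led the lower side also included Lyz2 (-5.18 ± 0.33) and Retnla (-4.80 ± 0.32), genes of macrophages, Cd74 (-3.72 ± 0.34) and H2-Aa (-4.06 ± 0.38), genes of antigen presentation, and the interferon-induced gene Ifi27l2a (-2.37 ± 0.23). Lyz2 ranged from 0 to 16.4 CPM in gamma-delta T cells and from 120 to 730 CPM in other T cells. The 7 macrophage markers summed to 0 to 76.0 CPM in gamma-delta T cells, with Adgre1 at 0, and to 164 to 2074 CPM in other T cells. The 7 B cell markers summed to 1101 to 17139 CPM in other T cells. The part of other cell types in these genes was not tested. Cd8a was lower (-4.11 ± 0.36), which the exclusion of Cd8b1 bears on directly.

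Feeding was compared in the gamma-delta T cells with all 8 libraries, a choice made after cell numbers were seen, since only 2 Ad-Lib libraries held 10 cells or more. Of 959 genes tested, 0 were called by edgeR in either direction (0%), with 106 at an unadjusted p under 0.05, and DESeq2 called 1. Without the filter on low counts 18 of 11733 genes were called. Il17a was 456, 668, 237 and 386 CPM in Ad-Lib 1, 3, 5 and 7 and 484, 1497, 911 and 836 CPM in TAN 2, 4, 6 and 8. Only TAN 2 lay within the Ad-Lib range. The log2 difference was 0.98 ± 0.33 (adjusted p = 0.355 by edgeR), and it was called without the filter (1.09 ± 0.26, adjusted p = 0.0199 by edgeR). Few cells carried the counts, with 5, 3, 3 and 2 cells with Il17a in Ad-Lib and 2, 5, 12 and 3 in TAN libraries.

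Shares of cells gave no call either. With each cell thinned to 1500 UMIs, cells with Il17a made up 14.2% ± 3.49 (SD, n = 2) of gamma-delta T cells in the Ad-Lib and 27.4% ± 11.5 (SD, n = 4) in the TAN libraries that held at least 10 of them. The exact permutation p was 0.2 (Benjamini-Hochberg 0.4), where 15 assignments allow 0.0667 at best, so this design cannot reach 0.05. Unthinned and in all 8 libraries, the shares were 55.6%, 15.8%, 25% and 40% in Ad-Lib and 18.2%, 45.5%, 37.5% and 23.1% in TAN libraries, which overlapped, and there the Ad-Lib mean was the higher, the reverse of the order of the thinned means. Thinned and in all 8 libraries, the difference was 4.54 percentage points in place of 13.2. Cells with Cd163l1, which the gate used, made up 44.4%, 36.8%, 16.7% and 60% in Ad-Lib and 54.5%, 18.2%, 25% and 15.4% in TAN libraries, which overlapped and are given as a description.

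The genes named next were chosen after their values were seen. The share of all 959 genes tested whose groups do not overlap is not given, so a lack of overlap below is a description. Crip1, a small LIM protein, was 4389, 3279, 3895 and 3126 CPM in Ad-Lib and 2459, 1754, 2363 and 2049 CPM in TAN libraries. The groups did not overlap, with a log2 difference of -0.81 ± 0.17 (adjusted p = 0.189 by edgeR), and Crip1 was the gene that DESeq2 called. In other T cells of all 8 libraries the difference was -1.12 ± 0.24 (adjusted p = 0.0179 by edgeR). Tsc22d3, a glucocorticoid-induced gene, was 228, 191, 355 and 176 CPM against 127, 48.3, 131 and 103 CPM, again without overlap (-1.19 ± 0.32, adjusted p = 0.296 by edgeR).

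Ier2, an immediate early gene, was 152, 234, 263 and 176 CPM in Ad-Lib and 280, 451, 508 and 401 CPM in TAN libraries, without overlap. Gadd45b, a stress-response gene, was 190, 165, 224 and 281 CPM against 217, 579, 595 and 366 CPM, with TAN 2 within the Ad-Lib range. Neither passed the test, with log2 differences of 0.91 ± 0.25 and 1.08 ± 0.31 (adjusted p = 0.296 for each by edgeR), though without the filter Gadd45b was called (1.22 ± 0.31, adjusted p = 0.0468 by edgeR). Xcl1 was 19.0, 685, 750.1 and 0 CPM in Ad-Lib and 204, 241, 81.9 and 126 CPM in TAN libraries (-1.51 ± 0.66, adjusted p = 0.428 by edgeR). In the 6 libraries with at least 10 cells it was the 1 gene called (-2.23 ± 0.35, adjusted p = 0.0168 by edgeR), where both Ad-Lib libraries were those with its high values, and it was also called with no filter on low counts (-1.43 ± 0.31, adjusted p = 0.00845 by edgeR).

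**Figure D5:**
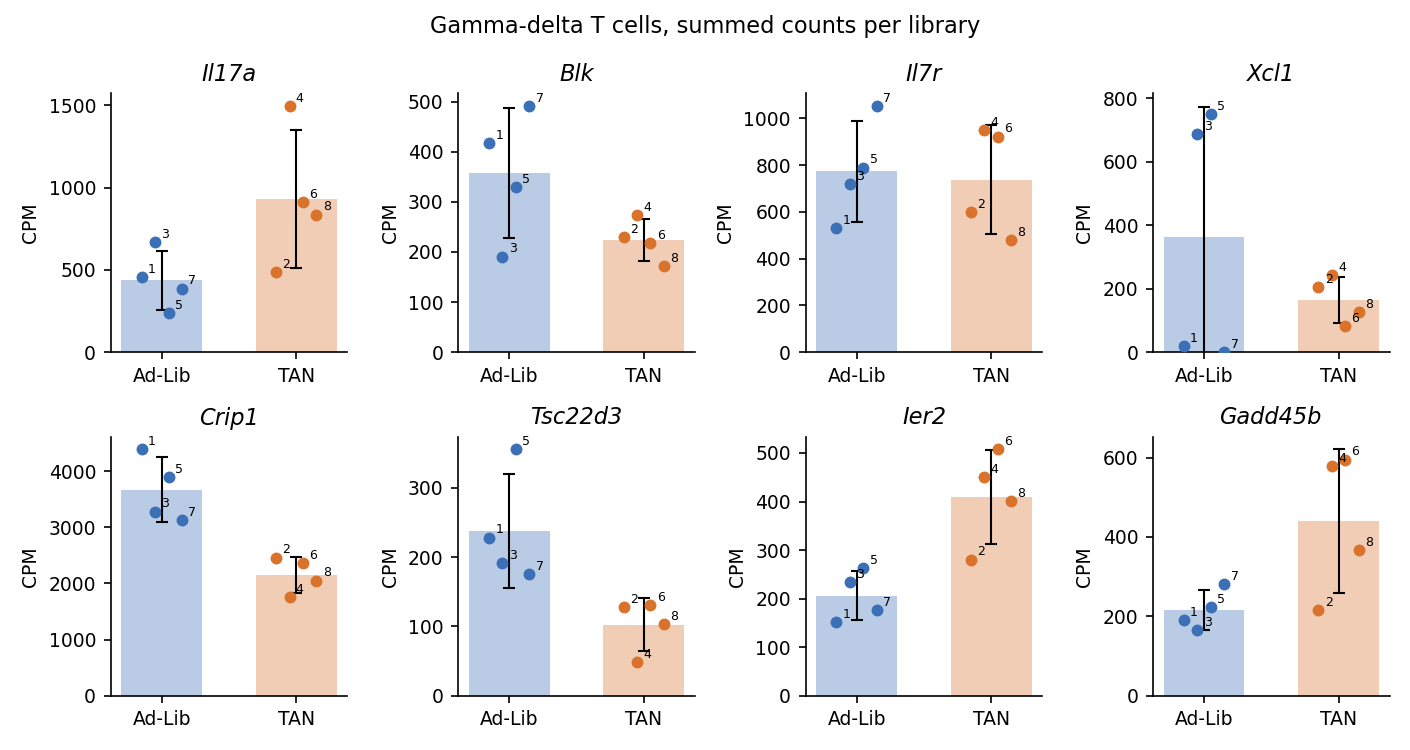
Summed counts of gamma-delta T cells as CPM for 8 genes, with 1 point per library marked by its number, bars at the mean and error bars of 1 SD (n = 4 per group). Crip1, Tsc22d3 and Ier2, chosen after their values were seen, do not overlap between groups, and Il17a and Gadd45b overlap through TAN 2. EdgeR called none of the 8 genes with the filter on low counts and all libraries.

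Among the lists, the IL-17 programme had 11 genes tested for feeding, 3 with a positive and 8 with a negative log2 difference (TAN against Ad-Lib) and a median of -0.43 against -0.02 over all genes tested. The type 1 list had 11 tested, also 3 positive and 8 negative, with a median of -0.48. In this fit edgeR called no gene of any list. Whether feeding differences were the same in gamma-delta T cells and other T cells was tested as an interaction in the 6 libraries, and 0 of 6666 genes were called by edgeR (0%), with 301 at an unadjusted p under 0.05 and 0 called by DESeq2. Gadd45b had an interaction of 2.10 ± 0.44 (adjusted p = 0.127 by edgeR), and its feeding difference in other T cells of all 8 libraries was -0.82 ± 0.25 (adjusted p = 0.0636 by edgeR). Cdkn1a, a cell cycle inhibitor gene chosen after its values were seen, had 3.66 ± 0.78 (adjusted p = 0.127 by edgeR) and was called without TAN 2 or TAN 8, with no filter and with all 8 libraries. Gadd45b was called when Ad-Lib 3, TAN 2 or TAN 8 was left out, with no filter on low counts and with all 8 libraries. All 10 genes of the AP-1 and immediate early list had a positive interaction, with a median of 1.06 against 0.04 over all genes tested, and edgeR called none of them in this fit. Fos was called without TAN 2 (1.52 ± 0.30) and Ier2 with all 8 libraries (1.64 ± 0.33). The 6 cell cycle genes tested were also all positive, with a median of 4.39 and none called by edgeR in this fit, while Stmn1 was called with no filter, without TAN 2, without Ad-Lib 5 and without cells that had Cd8a or Trac (the last also calling Mki67). Few cells carried these counts, since in TAN 8 1 cell held 40 of 59 UMIs of Tubb5 and all 44 of Stmn1, and in TAN 6 1 cell held 19 of 24 of Stmn1.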

How the data were processed

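The authors deposited raw UMI counts for every gene and barcode, made with Cell Ranger (3.0.2 per the submitters' notes, whereas the file headers name another version) on mm10 (GRCm38) and holding barcodes called as cells, with no normalization. Libraries held 25320800 to 37140950 UMIs. Cells with 700 to 30000 UMIs, 200 to 8000 genes and at most 10% mitochondrial UMIs were kept, the study's limits. The gates and gene lists were chosen with earlier results of these data known. Gene coordinates come from GENCODE M21.

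The library was the replicate. The study describes its libraries as animal replicates. Shares were compared by exact permutation tests (two-sided), with Clopper-Pearson 95% intervals (scipy 1.17.1). Limits for a count of 0 are 3 counts. Counts were summed per library and class, scaled by TMM, filtered by filterByExpr and tested with edgeR 4.0.16 (quasi-likelihood, Benjamini-Hochberg). DESeq2 1.42.0 was an alternative. Comparisons between classes had the library as a block, because both classes came from the same library. Cd163l1+ against Cd163l1- cells was not tested, because no library held 10 of each. Fits were tested on simulated data. Results for a few genes, and 1 of the 6 shares, are not reported here.

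Genes named were the 10 called in each direction with the smallest adjusted p and the same direction in every library, called genes of the lists and the genes of each list with the highest counts, from which a choice is given. Others are stated as chosen after their values were seen.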

Additional observations from a re-analysis of the deposited data

Results flagged for a closer look

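Of 37 groups of 4 libraries examined for a library far from the others, 3 held one, where chance alone marks about 1 group in 20. In TAN 2, Maf was at 484.12 CPM and Tmem176b at 1363.18 CPM in gamma-delta T cells, each far above the other TAN libraries. TAN 2 was also the library in which 6 of 7 cells of the IL-17 side had Cd163l1 without 5830411N06Rik.

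In TAN 8, Tubb5, a tubulin gene of dividing cells, was at 675.467 CPM, against 241 to 306 CPM in the other TAN libraries. Of its 59 UMIs there, 40 came from 1 cell.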

How the results depend on the processing

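Of 144 alternatives over all results, 119 kept direction and side of the threshold, or a count within 1.5 times. The cause of the changes was not tested. The difference in the share of T cells was -3.52 and -3.45 points with a Trdc and Cd163l1 sum of at least 3 and at least 1 (exact permutation p = 0.0286 for each). The difference in the share of gamma-delta T cells with Cd163l1, 1.52 points in libraries with at least 10 cells, changed sign, to -21.7 points without Cd8a or Trac UMIs, -1.72 thinned to 1500 UMIs, -11.2 with all 8 libraries and between -8.56 and 11.6 with 1 library left out, negative without TAN 2 (-7.23) and without Ad-Lib 5 (-8.56).

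Genes called for feeding numbered 18 with no filter on low counts, 1 by DESeq2 (Crip1) and 1 in the 6 libraries with at least 10 cells (Xcl1), a setting chosen after seeing the data, as was the use of all 8 libraries elsewhere. Against other T cells, 272 genes were called with no replicate block, of which 240 were among the 483, and 238 against other T cells without Cd8b1, Cd4 and Foxp3. Against Cxcr6+ other T cells, 108 were called with no replicate block, 294 with no filter, 292 with all 8 libraries and 96 to 177 with 1 library left out (96 without TAN 6, 109 without Ad-Lib 3). The interaction gave 7 genes with no filter, 1 with a Trdc and Cd163l1 sum of at least 3, 6 without Cd8a or Trac UMIs, 6 with all 8 libraries and 0 to 8 with 1 library left out (8 without TAN 2, 5 without TAN 8, 4 without Ad-Lib 5 and 1 without Ad-Lib 3). No paired analysis was possible between feeding groups because they share no replicate numbers.

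Over all alternatives, 16 to 22 genes of the IL-17 list were called higher than in other T cells and 10 to 18 than in Cxcr6+ other T cells, none lower. Libraries held 5 to 32 gamma-delta T cells, and 959 genes passed the filter for feeding.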

Other observations

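Against other T cells of the same libraries, where 3.47% of all genes tested were called higher, some clock and hormone-responsive genes were called. Of 8 clock genes tested, Per1 (log2 difference 1.03 ± 0.31, adjusted p = 0.0301 by edgeR) and Nr1d1 (2.66 ± 0.80, adjusted p = 0.0313 by edgeR) were higher, and Per1 and Fkbp5 (1.08 ± 0.32) were the 2 called of 7 glucocorticoid-responsive genes. Both lists had 0 calls without TAN 6, with a Trdc and Cd163l1 sum of at least 3 and against other T cells without Cd8b1, Cd4 and Foxp3. The clock list also had 0 without Ad-Lib 3 and without cells that had Cd8a or Trac. The glucocorticoid-responsive list also had 0 with no filter on low counts. EdgeR called none of either list against Cxcr6+ other T cells, and 0 to 2 clock genes and 0 to 1 glucocorticoid-responsive gene over the alternatives. Of 10 AP-1 and immediate early genes, Atf3 (-2.51 ± 0.41) and Egr1 (-1.19 ± 0.29) were lower than in other T cells and also than in Cxcr6+ other T cells. The 2 calls against other T cells fell to 1 by DESeq2 and against other T cells without Cd8b1, Cd4 and Foxp3, and to 0 with no replicate block. In the opposite direction, 2 genes of the list were called higher without Ad-Lib 5 and without cells that had Cd8a or Trac, and 1 with RLE scaling, without TAN 2, without Ad-Lib 3 and with doublets removed. Against Cxcr6+ other T cells the 2 lower calls fell to 1 without Ad-Lib 3, without Ad-Lib 5 and with no replicate block. They were 3 with no filter and with all 8 libraries. Of 5 heat shock genes tested, Hspe1 (-0.75 ± 0.15) was lower than in other T cells, a call lost with no replicate block and against other T cells without Cd8b1, Cd4 and Foxp3. Of 7 lipid uptake and metabolism genes and 6 cell cycle genes tested against other T cells, edgeR called none, but 3 cell cycle genes were called lower without TAN 8, and 1 lipid gene was called lower with no filter and with all 8 libraries.

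Cd79b, known as part of the B cell receptor, was found in 20 of 112 gamma-delta T cells (17.9%) and in 3.8% of other T cells, and was higher by 2.27 ± 0.55 on the log2 scale (adjusted p = 0.00507 by edgeR). It was chosen after its values were seen. The gate required Cd79a to be 0. The 7 B cell markers, Cd79b among them, summed to 102 to 508 CPM in gamma-delta T cells and 1101 to 17139 CPM in other T cells, with 2 of the 7 at 0 in gamma-delta T cells. Their part in Cd79b was not tested. Cd79b was found in 15 of 66 cells of the IL-17 side and 5 of 46 of the type 1 side.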
